A study of Mus musculus with 12 samples.

Results

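The genes of MHC class II antigen presentation were examined in liver RNA of adrenalectomized mice that had received dexamethasone, a synthetic glucocorticoid, or vehicle. The set held 9 genes: the classical chains H2-Aa, H2-Ab1 and H2-Eb1, the peptide exchange genes H2-DMa, H2-DMb1 and H2-Ob, the invariant chain gene Cd74, the transactivator gene Ciita and the protease gene Ctss. Members were the non-control spots whose gene name, or whose transcript accession, matched a listed gene. They took up 13 of 41117 probes and 9 of 27635 gene names. All 9 genes and 13 probes passed the filter, as did 19340 genes and 28842 probes in all. The filter kept a probe if some group had it well above background on each of its 3 arrays. Of the 9 genes, 8 were above background on all 12 arrays, while H2-Ob passed only through its vehicle groups, so for H2-Ob a lower value after dexamethasone was in part set by the filter.

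The 12 arrays held 4 groups of 3 C57BL/6 liver samples: males and females, each given either vehicle or dexamethasone. The labels number the samples of a group as replicates and do not say outright that each came from its own animal, so p-values measure the spread between these samples. All animals had lost their adrenal glands, which are the main source of circulating glucocorticoid, and the females were in the first day of diestrus. Vehicle was phosphate buffered saline, dexamethasone was injected intraperitoneally at 1 mg/kg, all mice were 11 weeks old, and liver was taken 6 h later. Mice with adrenal glands are not analysed here. Total liver RNA (500 ng) was labelled with Cy3 and read on 1-colour Agilent arrays, and every level below is the log2 signal of a probe relative to the 75th percentile of its own array. Levels of different probes cannot be set against each other.

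Class II molecules are pairs of an alpha and a beta chain that show peptides from the endosomal pathway to helper T cells. The invariant chain fills the peptide groove of new class II molecules, cathepsin S trims it down to a short fragment, the DM pair exchanges that fragment for peptide, and the DO pair, of which H2-Ob codes the beta chain, restrains DM. Transcription of the classical chains, the invariant chain and the DM pair depends on the coactivator CIITA. CIITA binds to a protein complex assembled on paired promoter elements known as the X and Y boxes. In liver, B cells, dendritic cells, Kupffer cells and part of the sinusoidal endothelium are known to carry class II molecules, and hepatocytes carry few in the absence of inflammation.

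Promoter windows of 250 bases before to 50 bases after the transcription start were taken from RefSeq (assembly GRCm38.p6), which held 6 of the 9 members (H2-Aa, H2-Eb1, H2-DMa, H2-DMb1, H2-Ob and Ctss). The letters GNAAC followed on the gene strand by ATTGG, with 25 to 40 bases from the first letter of one to the first letter of the other, were present in H2-Aa, H2-Eb1, H2-DMb1 and H2-Ob. They are shown because these members share an arrangement that lies at nearly the same distance from each start. The capitals mark GNAAC (X) and ATTGG (Y), and the letters run from 5′ to 3′ on the gene strand.
H2-Aa: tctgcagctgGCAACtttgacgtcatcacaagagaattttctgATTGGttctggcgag
H2-Eb1: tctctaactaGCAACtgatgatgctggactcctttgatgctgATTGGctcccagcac
H2-DMb1: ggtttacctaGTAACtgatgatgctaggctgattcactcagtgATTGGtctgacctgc
H2-Ob: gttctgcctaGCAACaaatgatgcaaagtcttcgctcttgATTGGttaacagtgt
These stretches lie at chr17:34287857-34287914 on the minus strand for H2-Aa, and on the plus strand at chr17:34305766-34305822 for H2-Eb1, chr17:34153087-34153144 for H2-DMb1 and chr17:34238808-34238862 for H2-Ob.

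From the first letter of X to the first letter of Y there were 33 bases in H2-Aa, 32 in H2-Eb1, 33 in H2-DMb1 and 30 in H2-Ob, and X began at positions -94 to -81 relative to the start. The pair was found on the gene strand in 436 of 32851 promoters of the same length (1.33%), and ATTGG alone on either strand in 37.4%. Motif and spacing were chosen after the windows had been seen, so the share of members is a description. Neither of the 2 starts listed for H2-DMa held the pair, and neither did Ctss. The Ctss window held GAAA and, after any 2 bases, GAAA again, the letters of an interferon-type element, beginning at -21 (chr3:95526755-95526784, plus strand), which 3.44% of promoters hold on either strand.
The capitals mark those letters with the 2 bases between.
Ctss: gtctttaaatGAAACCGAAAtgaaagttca

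**Figure D1:**
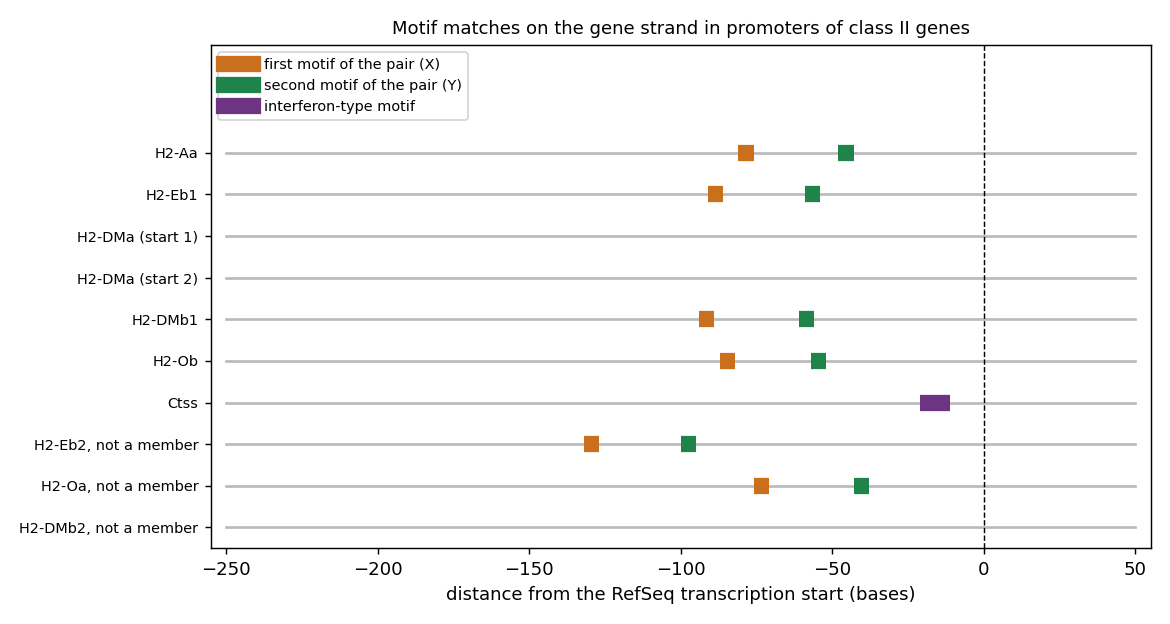
Position of motif matches (coloured bars) along the RefSeq promoter windows, in bases from the transcription start (dashed line), for the members in the table and for H2-Eb2, H2-Oa and H2-DMb2. In H2-Aa, H2-Eb1, H2-DMb1 and H2-Ob the X motif begins at -94 to -81 and Y follows 30 to 33 bases later.

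The 75th percentile of signal ran from 578 to 1251 over the 12 arrays, and 65.7% to 72.2% of spots were well above background. That share was 70.9% to 71.0% on male vehicle, 65.7% to 69.6% on male dexamethasone, 67.7% to 68.6% on female vehicle and 71.97% to 72.2% on female dexamethasone arrays. No member probe was saturated. The 7 hepatocyte markers tested, Alb and Tat among them, were above background on all 12 arrays, as the tissue label asks. Fkbp5, a glucocorticoid receptor target, rose by 4.45 ± 0.43 (log2, SE) in males and by 3.86 ± 0.43 in females (limma adjusted p = 0.000184 and 0.000595). Arrays lay on 3 slides of 4 arrays. Each male vehicle array was at position 1 of its slide, and no array of another group was. In males, position on the slide and treatment therefore cannot be told apart. The same holds for position and sex after vehicle, and the difference of effects uses the same male vehicle arrays.

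Most class II genes were lower in male liver after dexamethasone. H2-DMb1 fell by 1.72 ± 0.25 and Ciita by 1.74 ± 0.41 on the log2 scale (SE), and H2-Aa, H2-DMa, H2-Ab1 and Cd74 fell by 1.04 to 1.29. The means are those of 3 arrays each. The SE and p of the reported fit rest on a spread shared by all 12 arrays, those of the other sex included. In all, 6 of 9 members passed the test as lower (limma, Benjamini-Hochberg over 19340 genes, threshold 0.05), against 12.1% of all genes, and none passed as higher (10.4% of all genes). The median of the 9 differences was -1.09, against 0.01 over all genes. For each of the 9 members the 3 male dexamethasone arrays lay below the 3 male vehicle arrays, which was so for 21.5% of all genes. Because the RNA came from whole liver, fewer class II-bearing cells and less RNA per cell cannot be told apart. Without male vehicle replicate 1, the highest male vehicle array for all 9 members, 2 of 9 passed (H2-DMa and H2-DMb1). Normexp background correction also left 2 of 9, H2-Ab1 and H2-DMb1, and turned the sign for H2-Ob and Ciita.

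In female liver 2 of 9 members passed as lower, H2-DMb1 by 1.31 ± 0.25 and H2-DMa by 0.98 ± 0.26 on the log2 scale (SE), against 6.88% of all genes, and none passed as higher (6.79% of all genes). All 9 estimates were below 0, with a median of -0.88 against 0.02 over all genes. Groups did not overlap for 4 members (H2-Ab1, H2-DMa, H2-DMb1 and Cd74), as for 15.4% of genes. Female vehicle replicate 1 was the highest of all 12 arrays for 8 members, Ctss being the exception. The count of members called was 1 without female vehicle replicate 1, female dexamethasone replicate 1 or female dexamethasone replicate 2, and 4 without female vehicle replicate 3.

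**Figure D2:**
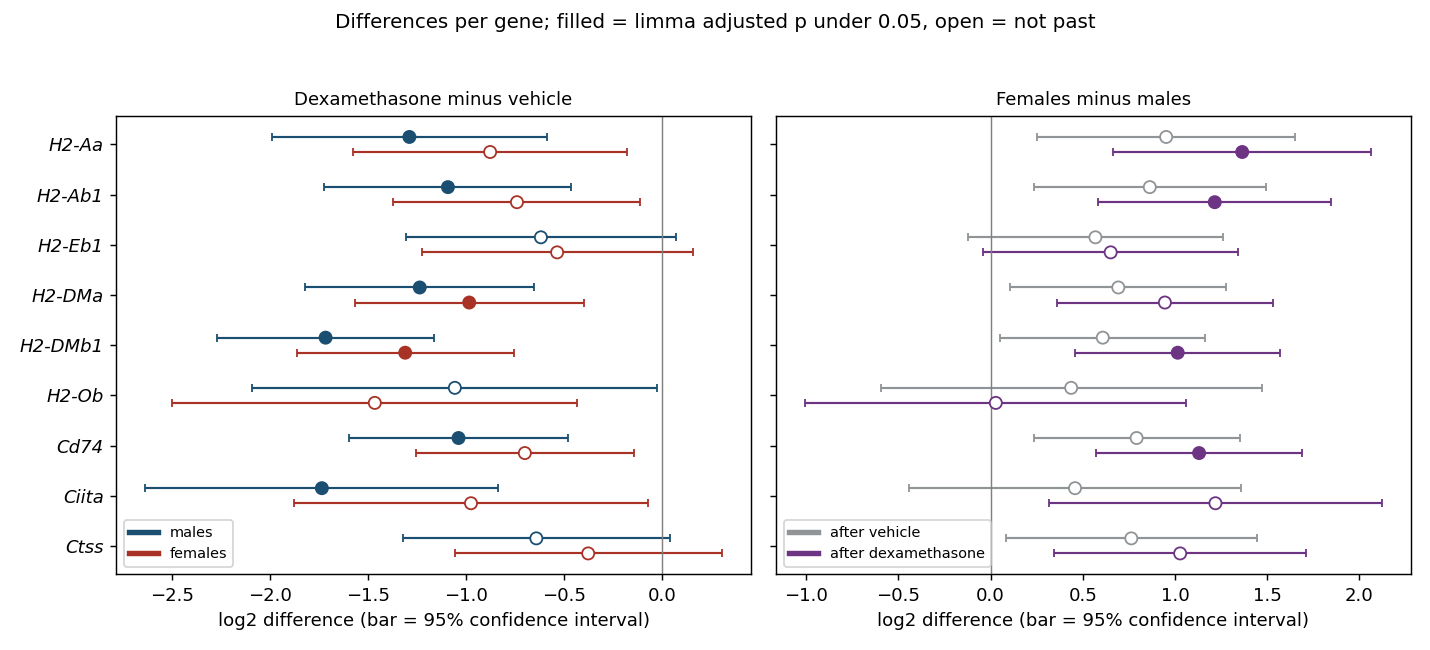
Log2 difference per gene with its 95% confidence interval, for dexamethasone minus vehicle in each sex (left) and females minus males after each treatment (right). Filled points passed the limma test at an adjusted p under 0.05: 6 in males, 2 in females, 0 after vehicle and 4 after dexamethasone.

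Among the peptide exchange genes, H2-DMb1 codes the beta chain of DM. Its level was 0.87, 0.32 and 0.43 on male vehicle replicates 1 to 3 and -1.43, -0.98 and -1.12 on the male dexamethasone arrays. In females it was 1.76, 0.85 and 0.84 after vehicle and -0.28, -0.18 and -0.02 after dexamethasone. Treated and vehicle arrays were apart in both sexes. The limma adjusted p was 0.00133 in males and 0.00819 in females. H2-DMb1 stayed past the threshold in both sexes under all 22 alternative settings, with adjusted p from 0.000503 to 0.0122 in males and from 0.00256 to 0.043 in females. Not all of these settings could challenge the calls. The deposited series values equal the processed signal, and the stricter filter and the mean of probes leave the levels of H2-DMb1 as they were. Leaving out an array of the other sex changes the shared spread and not the estimate. Its probe (chr17:32236685-32236744, plus strand, build mm7 as in the array files) lies in a region with a closely similar copy, H2-DMb2, so its signal may hold both genes.

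H2-DMa, the alpha chain partner, read -1.80, -2.34 and -2.15 on male vehicle arrays and -3.40, -3.34 and -3.25 after dexamethasone. Female values were -0.83, -1.39 and -1.98 after vehicle and -2.51, -2.59 and -2.06 after dexamethasone, again without overlap, although only narrowly in females. The difference in males was -1.24 ± 0.26 (SE, limma adjusted p = 0.00818) and that in females -0.98 ± 0.26 (adjusted p = 0.0341). The male call was lost with normexp (-0.30, adjusted p = 0.638). The female call was lost with normexp (-0.49, adjusted p = 0.455), with no filter (0.0502), with replicate number as a block (0.0538), with only the groups compared (0.12), and without female vehicle replicate 1 (adjusted p = 0.101), female vehicle replicate 2 (0.0719), female dexamethasone replicate 1 (0.0955) or female dexamethasone replicate 2 (0.104).

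H2-Ob was dim. It was above background on all 6 vehicle arrays, on 0 of 3 male dexamethasone arrays and on 1 of 3 female dexamethasone arrays. Male vehicle arrays read -5.46, -5.80 and -5.73, and male dexamethasone arrays -6.21, -6.58 and -7.36. No male dexamethasone array rose above background, so the level there is a bound. The mean signal was at least 1.48-fold lower than after vehicle. For this the dim side was taken as the lowest signal above background on each array, or the spot's own where that was higher. The bound compares means and leaves out the spread between arrays. The 95% confidence interval of the fitted difference was -2.09 to -0.02. Female arrays read -4.80, -5.94 and -4.94 after vehicle and -6.74, -7.62 and -5.71 after dexamethasone, with overlap. Neither sex passed the test (limma adjusted p = 0.133 and 0.0626), and with the normexp background correction the sign of the estimate turned in males (0.85) and in females (0.63). H2-Ob passed as lower in males with only the groups compared (adjusted p = 0.0472). In females H2-Ob passed with quantile normalization (0.0479) and without female vehicle replicate 2 (0.0402) or female dexamethasone replicate 3 (0.019).

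**Figure D3:**
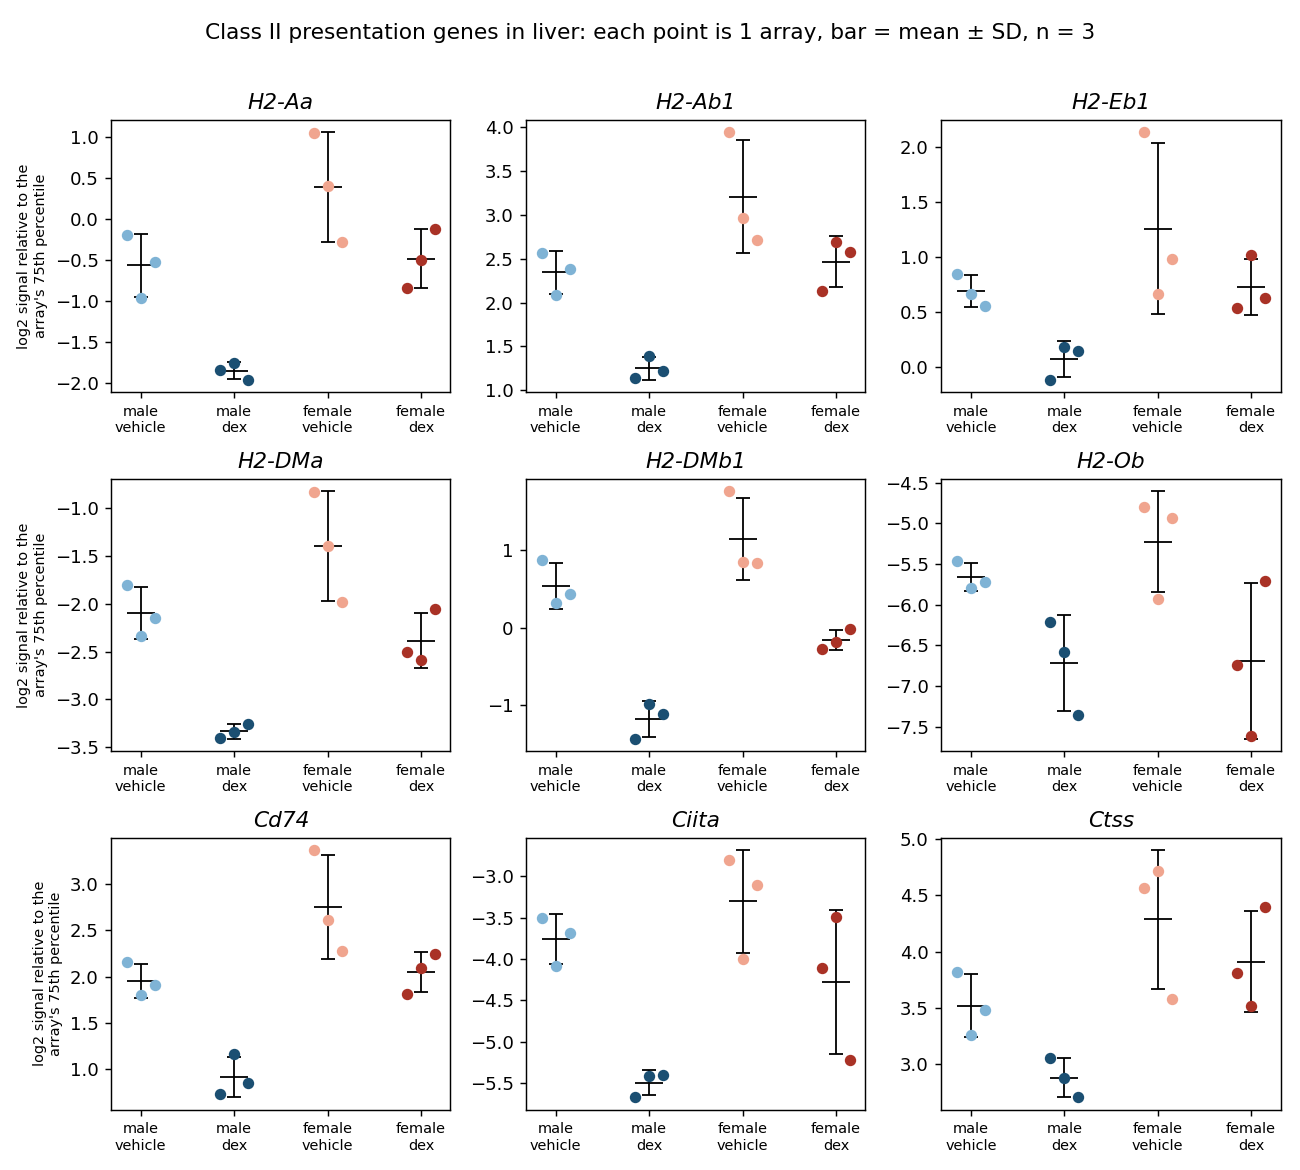
Level of each of the 9 members (log2 signal relative to the 75th percentile of the array) on every array, by group, with the mean and SD of 3 arrays as the bar. The male dexamethasone arrays lie below the male vehicle arrays in all 9 panels.

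Of the classical chains, H2-Aa (I-A alpha) read -0.19, -0.96 and -0.52 on male vehicle arrays and -1.84, -1.75 and -1.96 on male dexamethasone arrays. Female arrays read 1.06, 0.40 and -0.28 after vehicle and -0.83, -0.50 and -0.11 after dexamethasone. The male groups were apart, and in females the lowest vehicle array lay within the treated range. H2-Aa differed by -1.29 ± 0.32 in males (SE, limma adjusted p = 0.0155) and by -0.88 ± 0.32 in females (adjusted p = 0.0947). The male call was lost without male vehicle replicate 1 (adjusted p = 0.0686) and with normexp (-0.79, adjusted p = 0.234).

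H2-Ab1, which codes the I-A beta chain, read 2.57, 2.09 and 2.38 on male vehicle arrays and 1.14, 1.39 and 1.22 after dexamethasone. Female arrays read 3.94, 2.97 and 2.71 after vehicle and 2.13, 2.69 and 2.58 after dexamethasone. The groups were apart in both sexes, by a wide gap in males and a small one in females. The difference was -1.09 ± 0.29 in males (SE, limma adjusted p = 0.0202) and -0.74 ± 0.29 in females (adjusted p = 0.115). The male call was lost without male vehicle replicate 1 (adjusted p = 0.0809), male vehicle replicate 3 (0.0572), male dexamethasone replicate 1 (0.0582) or male dexamethasone replicate 3 (0.0526).

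H2-Eb1, the I-E beta chain, read 0.85, 0.67 and 0.55 on male vehicle arrays against -0.12, 0.18 and 0.15 after dexamethasone, a difference of -0.62 ± 0.31 (SE, limma adjusted p = 0.188). In females it read 2.13, 0.66 and 0.98 after vehicle and 0.53, 1.01 and 0.63 after dexamethasone, with overlap and a difference of -0.53 ± 0.31 (adjusted p = 0.3). H2-Eb1 did not pass in either sex, and its 95% confidence intervals ran from -1.31 to 0.07 in males and from -1.23 to 0.16 in females. Those intervals use a spread shared by all 12 arrays. The SD was 0.77 in the female vehicle group, 0.15 in the male vehicle group and 0.16 in the male dexamethasone group. H2-Eb1 passed as lower in males with only the groups compared (limma adjusted p = 0.0273) and without female vehicle replicate 1 (0.03). C57BL/6 mice are known to lack a functional I-E alpha gene, and the H2-Ea probe was above background on 0 of 12 arrays.

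H2-Aa had 2 probes and H2-Ab1 had 4, and each was fitted separately among 28842 probes. All 6 passed as lower in males, by 1.09 to 1.56 on the log2 scale, and none of the 6 passed in females, where the differences ran from -0.90 to -0.74. Over all 13 member probes, 10 passed as lower in males, against 11.7% of all probes, and 2 in females, against 6.39%. Between the sexes after dexamethasone 8 of 13 passed as higher in females, against 2.87%. Because 6 of the 13 probes read only 2 genes, these counts repeat some gene calls. With normexp 1 of the 13 passed in males, 1 in females and 0 between the sexes. The male count was 5 without male vehicle replicate 1, and the count between the sexes was 0 with slide as a block. Probes of 1 gene moved together over the 12 arrays, with a Pearson r of 0.997 between the 2 H2-Aa probes and of 0.972 to 0.995 among the 4 H2-Ab1 probes (descriptions over arrays that share depth and groups). One H2-Ab1 probe, A_51_P215237, was printed as 10 spots on each array. The SD of log2 signal between those spots was 0.01 to 0.06, while the SD between samples of a group was 0.06 to 0.66 for the same probe.

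Another pair of H2-Ab1 probes overlaps by 31 bases, within which 2 bases differ. They are shown because 2 probes that differ in sequence gave nearly the same differences, and the capitals mark the differing bases.
A_52_P570717: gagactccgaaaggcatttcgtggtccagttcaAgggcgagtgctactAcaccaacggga
A_51_P215242: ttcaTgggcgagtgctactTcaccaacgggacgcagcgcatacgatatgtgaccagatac
The first was named by symbol and the second by the accession of the H2-Ab1 transcript. In males they differed between dexamethasone and vehicle by -1.55 ± 0.32 and -1.56 ± 0.29 (log2, SE), and in females by -0.86 ± 0.32 and -0.87 ± 0.29.

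**Figure D4:**
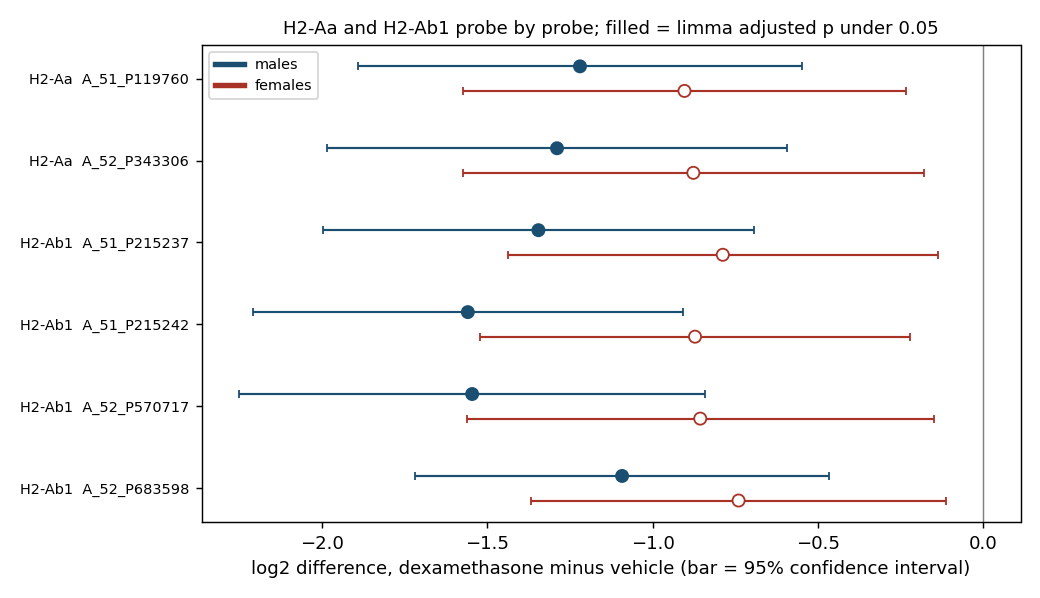
Log2 difference between dexamethasone and vehicle for the 2 H2-Aa and 4 H2-Ab1 probes in each sex, with 95% confidence intervals. Filled points passed the limma test over all probes in the reported fit: all 6 in males (1.09 to 1.56 lower) and none in females.

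Cd74 codes the invariant chain. It read 2.16, 1.80 and 1.91 on male vehicle arrays and 0.74, 1.16 and 0.85 on male dexamethasone arrays. Female arrays read 3.36, 2.61 and 2.28 after vehicle and 1.81, 2.09 and 2.24 after dexamethasone. The groups were apart in both sexes, in females by a narrow margin. The difference was -1.04 ± 0.25 in males (SE, limma adjusted p = 0.0147) and -0.70 ± 0.25 in females (adjusted p = 0.0939). The male call was lost without male vehicle replicate 1 (adjusted p = 0.0633) and with normexp (-1.12, adjusted p = 0.0559).

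Ctss codes cathepsin S, which degrades the invariant chain. Male arrays read 3.82, 3.26 and 3.48 after vehicle and 3.06, 2.88 and 2.71 after dexamethasone, and female arrays 4.56, 4.72 and 3.58 against 3.81, 3.52 and 4.40. The male groups were just apart and the female groups overlapped. Ctss did not pass in males (-0.64 ± 0.31, SE, limma adjusted p = 0.166) or in females (-0.38 ± 0.31, adjusted p = 0.477). With only the groups compared, Ctss passed as lower in males (adjusted p = 0.0494).

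Ciita, listed on the array under its older name C2ta (probe at chr16:10203747-10203806, plus strand, build mm7), read -3.51, -4.09 and -3.68 on male vehicle arrays and -5.67, -5.41 and -5.41 after dexamethasone. Female arrays read -2.81, -4.00 and -3.10 after vehicle and -4.11, -3.50 and -5.22 after dexamethasone. The male groups lay over 1 log2 unit apart, whereas the female groups overlapped and the treated females had the widest spread (SD 0.87, n = 3). The difference was -1.74 ± 0.41 in males (SE, limma adjusted p = 0.0127) and -0.97 ± 0.41 in females (adjusted p = 0.145). The Ciita signal was low, and the male call was lost with normexp background correction (0.29, the sign turned), with normexp after a cap on the local background (-0.41, adjusted p = 0.236) and without male vehicle replicate 1 (adjusted p = 0.0537).

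Whether the sexes responded differently was tested directly. The female effect minus the male effect ran from -0.41 for H2-Ob to 0.76 ± 0.58 (SE) for Ciita, and 0 of 9 members passed (limma, against 1 of 19340 genes after adjustment, 0.00517%). At an unadjusted p under 0.05, 0 of 9 passed, against 1033 of 19340 genes. The 95% confidence intervals were wide, from -0.38 to 1.19 for H2-DMb1 and from -0.58 to 1.40 for H2-Aa. A call in males and none in females therefore does not show a difference between the sexes. The male and female treatment comparisons share no arrays in their means, but they share the estimate of spread.

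After dexamethasone all 9 estimates were higher in females than in males. Only slide 1 held both sexes there, so sex and slide can hardly be told apart. Of the 9 members, 4 passed as higher in females (limma, against 3.27% of all genes): H2-Aa by 1.36 ± 0.32 (log2, SE, adjusted p = 0.033), H2-Ab1 by 1.22 ± 0.29 (0.0342), Cd74 by 1.13 ± 0.25 (0.029) and H2-DMb1 by 1.02 ± 0.25 (0.0417). The groups did not overlap for 8 of 9 members, as for 11.7% of genes, H2-Ob being the exception with a difference of 0.03 ± 0.47. None of the 4 calls stood with slide as a block, with replicate number as a block or with normexp. With the slide block the estimates were 0.70 to 0.89 and the adjusted p 0.216 to 0.285. Leaving out single arrays gave counts from 0 (without male dexamethasone replicate 1 or 3, or female dexamethasone replicate 1 or 2) to 6 (without female vehicle replicate 3), with 1 each without male vehicle replicate 3, male dexamethasone replicate 2 or female dexamethasone replicate 3. Without female dexamethasone replicate 3 that gene was Ciita (limma adjusted p = 0.0198), and all 4 calls named above were lost.

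After vehicle no member passed (limma, 0 of 9 against 0.657% of genes called higher in females). At an unadjusted p under 0.05, 6 of 9 did, against 2643 of 19340 genes in either direction. All 9 estimates were above 0. The largest were 0.95 ± 0.32 for H2-Aa, 0.86 ± 0.29 for H2-Ab1 and 0.79 ± 0.25 for Cd74 (log2, SE), with adjusted p of 0.194, 0.191 and 0.174. Groups were apart for 2 members, H2-Ab1 and Cd74 (8.28% of genes). Both comparisons of the sexes use the same arrays as the treatment comparisons. After vehicle, sex and position on the slide cannot be told apart.

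On slides 1 and 3, the slides that held male arrays of both treatments, all 9 members were lower after dexamethasone in males, by differences from -1.90 to -0.66 on slide 1 (1 array against 1) and from -1.59 to -0.38 on slide 3 (2 against 1). In females 7 of 9 were lower on slide 1 (1 against 1), where H2-Eb1 (0.35) and Ciita (0.50) were not, and 9 of 9 on slide 2 (2 against 1). The female vehicle array on slide 2 was replicate 1, the highest of all 12 arrays for 8 members. With slide as a block, 5 members passed in males, H2-Ab1 being lost (-0.91 ± 0.27, SE, limma adjusted p = 0.0515), and 4 passed in females, H2-Aa (-1.11 ± 0.27, adjusted p = 0.0381) and Cd74 (-0.88 ± 0.23, adjusted p = 0.0467) being gained. After vehicle, with 1 array of each sex per slide, females were higher than males for 5 of 9 members on slide 1 and for 9 of 9 on slides 2 and 3. After dexamethasone only slide 1 held both sexes, and there 8 of 9 members were higher in the female.

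Part of the members varied together from array to array. Over the 36 pairs of members, Pearson r across the 12 arrays ran from 0.48 to 0.99 with a median of 0.85, and with each group's mean removed from -0.52 to 0.96 with a median of 0.56. These are descriptions over arrays that share groups and array-wide scaling. Among H2-Aa, H2-Ab1, H2-Eb1 and Cd74 alone, the median with group means removed was 0.88. Against the mean of those 4 genes, Ciita had an r of 0.83 across arrays and 0.31 with group means removed, and H2-Ob 0.59 and 0.23, whereas H2-DMb1 kept 0.93 in both. Ciita and Ctss were the pair that went most apart within groups (r = -0.52).

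Outside the set, the genes whose levels over the 12 arrays were most like the mean of H2-Aa, H2-Ab1, H2-Eb1 and Cd74, among 14767 compared, were Sash3 (Pearson r = 0.96), Myo9a, Evl, Prickle1, Epsti1, Rab19, Ms4a4b and Dennd1c (r = 0.95). With group means removed they were Slc14a1 (r = 0.95), H2-DMb2 (0.94), Gabarapl1, Prelid1, Ypel3, Hk3, Gng5 and Spaca9 (0.89).

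Of the class II chains outside the 9 members, H2-Oa and H2-DMb2 passed the filter, and both fell in both sexes. H2-Oa, the DO alpha chain and partner of H2-Ob, fell by 1.85 ± 0.29 in males (log2, SE, limma adjusted p = 0.00195) and fell by 1.05 ± 0.29 in females (adjusted p = 0.0401). Its promoter window holds the X and Y letters 33 bases apart, and that of H2-DMb2 does not hold the pair. H2-DMb2 fell by 1.96 ± 0.25 in males and by 1.30 ± 0.25 in females (adjusted p = 0.00073 and 0.00854), with the reservation that its probe also lists the H2-DMb1 transcript. In females 1 of the 2 passed without any 1 of female vehicle replicates 1 and 3, male vehicle replicate 2 or the 3 female dexamethasone arrays, and 0 passed with normexp in either sex. The H2-Eb2 probes were above background on at most 1 of 12 arrays.

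Genes for the X and Y box proteins and for coactivators were called in both directions, in numbers too small to set apart from the shares of all genes. Of 9 genes tested for class II transcription (Rfx5, Rfxap, Rfxank, the 3 NF-Y subunits, Creb1, Crebbp and Kat2b), 1 passed as lower and 2 as higher in males, against 12.1% and 10.4% of all genes, and 1 and 1 in females, against 6.88% and 6.79%. Nfyb, a subunit of the Y box factor, fell by 0.65 ± 0.20 in males and by 1.02 ± 0.20 in females (log2, SE, limma adjusted p = 0.0371 and 0.00826). Rfxap rose by 0.55 ± 0.16 and Crebbp by 0.46 ± 0.14 in males, and Nfyc rose by 0.40 ± 0.11 in females (adjusted p = 0.0275, 0.0368 and 0.0432). Rfx5, the DNA-binding subunit of the X box complex, did not pass (-0.69 ± 0.36 in males and -0.95 ± 0.36 in females). Over the 22 alternatives, the counts in males ran from 0 to 1 lower and from 0 to 3 higher, and without male vehicle replicate 1 they were 0 and 1.

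Interferon gamma is the main inducer of CIITA. None of 9 genes of its axis passed as higher (10.4% of all genes in males and 6.79% in females), and the medians were -0.51 and -0.54. Of the 9, 3 passed as lower in males and 3 in females, against 12.1% and 6.88% of all genes. In males they were Ifng, the cytokine (-1.57 ± 0.41, log2, SE, above background on 1 of 3 male dexamethasone arrays), Jak2, a receptor kinase (-0.88 ± 0.13), and Irf1, a transcription factor that acts on the Ciita promoter (-1.97 ± 0.40). Ifng passed the filter only through the other groups, where it was brighter, so its call in males was in part set by the filter. In females the genes called included Jak2 (-0.54 ± 0.13) and Ifngr2, a receptor chain (-0.90 ± 0.23). The limma adjusted p of the calls named here lay between 0.00162 for Jak2 in males and 0.0287 for Ifngr2 in females. Over the 22 alternatives the counts ran from 1 to 5 in males and from 0 to 5 in females, where 0 passed without female vehicle replicate 1 or 3 or female dexamethasone replicate 1, and 1 without female dexamethasone replicate 2.

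Of 11 lysosomal processing genes, 1 passed as lower in males (Ctsc, -0.93 ± 0.27, log2, SE, limma adjusted p = 0.0335) and 1 as higher (Ctsl, 0.71 ± 0.19, adjusted p = 0.0233), against 12.1% and 10.4% of all genes. In females 0 passed, against 6.88% and 6.79% of all genes (3 lower at most in males and 1 in either direction at most in females under any alternative). Of 8 genes for surface turnover and costimulation, 3 passed as lower in males and 2 in females, against the same 12.1% and 6.88%. Cd274, the ligand of PD-1, fell by 2.74 ± 0.28 in males and fell by 1.99 ± 0.28 in females, and Cd40, a receptor of antigen-presenting cells, also fell (-1.13 ± 0.26 and -1.06 ± 0.26, adjusted p from 0.000263 to 0.0223). Cd86, a ligand of CD28, fell by 0.90 ± 0.25 in males (adjusted p = 0.0279) and did not pass in females (-0.71 ± 0.25). One gene passed in males without male vehicle replicate 1, and 1 in females without female vehicle replicate 1 or female dexamethasone replicate 2.

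Of 9 genes of the class I pathway, 4 passed as lower in males and 5 in females, against 12.1% and 6.88% of all genes. The genes called were the peptide supply genes. The immunoproteasome gene Psmb9 fell by 1.18 ± 0.15 in males and fell by 1.52 ± 0.15 in females, and the peptide transporter gene Tap1 also fell (-1.32 ± 0.24 and -1.28 ± 0.24, log2, SE, limma adjusted p from 0.000328 to 0.008). Psmb8 and Psmb10 also passed in both sexes, and Tap2 in females. The class I chains H2-K1 (0.10 ± 0.13 in both sexes) and H2-D1 (0.02 ± 0.16 and 0.11 ± 0.16) and B2m (0.09 ± 0.14 and -0.02 ± 0.14) did not pass. Over the 22 alternatives 1 to 4 class I pathway genes passed as lower in males (2 without male vehicle replicate 1) and 2 to 5 in females (3 without female vehicle replicate 1 or female dexamethasone replicate 1 or 2).

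Markers of B cells, which carry class II molecules, were lower after dexamethasone in part. Of 8 B cell markers tested, 5 passed as lower in each sex, against 12.1% of all genes in males and 6.88% in females. The medians were -2.22 in males and -1.41 in females. Ms4a1, a B cell surface protein (-3.02 ± 0.43 in males and -2.33 ± 0.43 in females), Cd79b, of the B cell receptor (-2.39 ± 0.47 and -1.86 ± 0.47), and Cd22, an inhibitory receptor (-2.14 ± 0.29 and -1.31 ± 0.29), fell in both sexes (log2, SE, limma adjusted p from 0.000939 to 0.0268). Fcer2a and Fcrla passed the filter only through groups where they were brighter, so their calls in males were in part set by it. They were not well above background on any male dexamethasone array, where the mean signal was at least 2.59-fold and 3.86-fold lower than after vehicle. These bounds leave out the spread between arrays. Cd79a did not pass in either sex (-0.47 ± 0.50 in males and -0.53 ± 0.50 in females), and Pax5 and Blk were too dim to be tested. The count was 2 in each sex with normexp after the cap on local background, 0 with normexp without it and 3 with the stricter filter. In females it was 1 without female vehicle replicate 1 or female dexamethasone replicate 2 and 2 without female vehicle replicate 3 or female dexamethasone replicate 1.

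The summed signal of the 8 B cell markers, relative to the 75th percentile of each array, was 0.93 to 1.43 on male vehicle, 0.29 to 0.47 on male dexamethasone, 0.91 to 2.14 on female vehicle and 0.37 to 0.74 on female dexamethasone arrays. The same sum over the 9 members was 20.9 to 29.4, 12.6 to 14.3, 28.3 to 59.9 and 24.99 to 35.6. The B cell sums were apart in both sexes. A sum of signals leans on its brightest probes, and the sum over members overlapped between the female groups with Ctss and did not without it (16.4 to 36.2 after vehicle and 11.0 to 14.6 after dexamethasone for the other 8). How far B cell number entered the members' values was not tested.

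Over all genes, 12.1% passed as lower and 10.4% as higher in males, and 6.88% and 6.79% in females. Of 8 dendritic cell markers, 3 passed as lower in males (Itgax, -1.86 ± 0.25, Batf3, -1.15 ± 0.25, and Ccr7, at least 2.65-fold lower) and 0 in females, while Clec9a, a receptor of cross-presenting dendritic cells, rose in both (1.17 ± 0.18 and 0.74 ± 0.18, log2, SE, limma adjusted p = 0.0019 and 0.0251). Ccr7 was above background on no male dexamethasone array and passed the filter through the other groups, so its call was in part set by that. Its fold is a bound on the means and leaves out the spread between arrays. Of 12 Kupffer cell and macrophage markers, Adgre1, a macrophage surface receptor, fell in males (-1.18 ± 0.38, adjusted p = 0.045), Cd163 rose in both sexes (1.51 ± 0.34 and 1.43 ± 0.34), and the resident Kupffer cell marker Clec4f did not pass (-0.13 ± 0.24 and -0.04 ± 0.24). Their sum was 72.8 to 113 on male vehicle, 53.5 to 70.3 on male dexamethasone, 106 to 165 on female vehicle and 78.2 to 150 on female dexamethasone arrays. Of 4 monocyte markers 3 passed as lower in males and 0 in females, with sums of 28.5 to 46.7, 15.1 to 19.03, 63.9 to 98.3 and 42.1 to 63.6 in the same order of groups. Of 6 T cell markers 3 passed as lower in males and 0 in females. Without male vehicle replicate 1 the male counts were 0 for T cell, 1 for monocyte and 0 for Kupffer cell markers.

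Of 6 sinusoidal endothelial markers, Clec4g and Fcgr2b fell in both sexes (-1.09 ± 0.23 and -1.43 ± 0.23 in males, log2, SE), Kdr in males, and Lyve1 rose in both (limma adjusted p from 0.00197 to 0.0477 over these calls). The shares of all genes were 12.1% lower and 10.4% higher in males, and 6.88% and 6.79% in females. Of 7 hepatocyte markers, 4 passed as higher in each sex and none as lower, with sums of 1135 to 1301 on male vehicle, 1900 to 2122 on male dexamethasone, 1082 to 1238 on female vehicle and 1643 to 1918 on female dexamethasone arrays. The hepatocyte count called higher ran from 1 to 4 in each sex over the alternatives. Whether hepatocyte number or a response of these genes to the drug lay behind it was not tested. The part of these cell types in the members' differences was not tested.

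**Figure D5:**
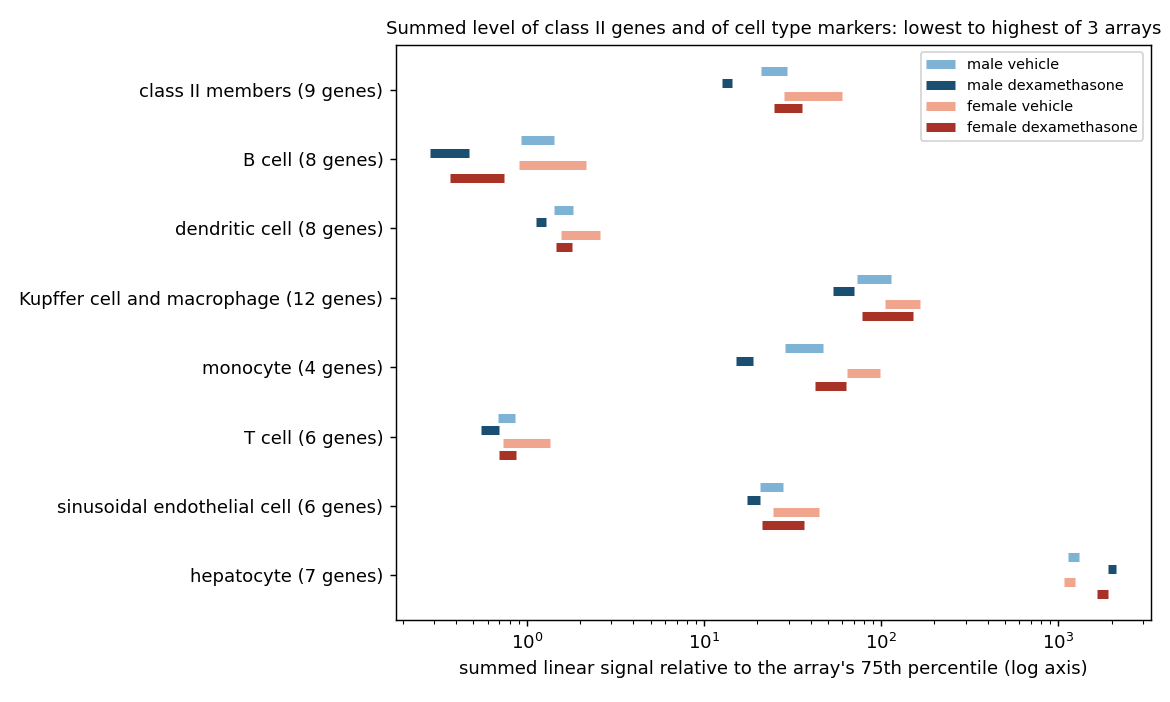
Summed linear signal of the 9 members and of the markers of each cell type, relative to the 75th percentile of the array (log axis), as bars from the lowest to the highest of the 3 arrays of a group. The male dexamethasone bar of the members (12.6 to 14.3) lies below the other 3 groups, as it does for dendritic cell markers (1.13 to 1.28), Kupffer cell and macrophage markers (53.5 to 70.3) and monocyte markers (15.1 to 19.03).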

How the data were processed

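Liver RNA of 12 samples was measured on 12 1-colour arrays. Deposited intensity values are the processed signals of Agilent Feature Extraction 9.5, per the submitters' processing notes and the file headers, and the deposited series values equal them on all probes. Spots of a probe were averaged without outlier spots (57 probes lost all spots on some array), log2 of the signal was taken and the 75th percentile of each array subtracted. A gene was read from its brightest probe among those that some group had well above background on each of its 3 arrays. Group means were fitted with limma 3.58.1 (R 4.3.3) over all 12 arrays, 5 comparisons were made with Benjamini-Hochberg adjustment over 19340 genes (28842 probes in the probe fit), and the code was tested on simulated data. With 3 samples per group, the number of arrays limits the precision. Members and gene lists were chosen with earlier results of these data known. All members and any gene of the lists could be named (some list genes are counted but not reported here by name), the likeness genes are the 8 highest by each measure, and no list was given a test of its own. Alternatives were quantile normalization, normexp (offset 50), no filter, a stricter filter, the mean of probes, slide or replicate as a block, only the groups compared, each array left out, the deposited series values and, added after seeing the data, normexp with local background capped at the 99th percentile. The deposited series values equal the processed signal, so that alternative repeats the reported fit. Exon and UTR annotation of the mm7 build was not used here.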

Additional observations from a re-analysis of the deposited data

How the results depend on the processing

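Over 22 alternatives, members kept their direction in both treatment comparisons except H2-Ob and Ciita with normexp: H2-Ob 0.85 in males and 0.63 in females (0.12 in males with the cap on local background), and Ciita 0.29 and 0.34. With normexp the median of all genes was 0.26 in males and 0.24 in females (0.01 and 0.02 in the reported fit, 0.11 and 0.07 with the cap). Male dexamethasone replicate 1 and female dexamethasone replicate 3 held spots with a local background of up to 11368 and 20654, and the background mean fitted there was -399 and -514.7, against -3.80 and -4.79 with the cap. It called 2 members in males, 1 in females and 0 between the sexes after dexamethasone (1, 1 and 0 probes), and 908, 536, 88 and 59 genes in males, females, after vehicle and after dexamethasone, with 0 for the difference of effects. With the cap, 5, 3 and 4 members passed, and 2 genes for the difference of effects.

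The female count of members was 1 with no filter (1 probe), with the replicate block (1 probe) and with only the groups compared, and 4 with slide as a block (7 probes). Without a filter, 2278 genes passed for the difference of effects and 4233 between the sexes after dexamethasone, and that first count was 0 with the stricter filter and with the mean of probes. Only the groups compared gave 1180 genes in females, 224 after vehicle and 491 after dexamethasone, and 9 members in males. Slide as a block gave 0 members, 0 probes and 244 genes between the sexes after dexamethasone.

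Replicate numbers did not pair the samples (r of deviations between same-numbered arrays from -0.22 to 0.33, median -0.11). The replicate block gave 0 members, 3 probes and 703 genes between the sexes after dexamethasone and 244 genes after vehicle.

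With 1 array left out, the counts ran from 2 to 7 members and 5 to 11 probes in males, 1 to 4 and 1 to 8 in females, and 0 to 6 and 0 to 10 between the sexes after dexamethasone. Genes ran from 2342 to 5026 in males, 1504 to 2568 in females, 1 to 32 for the difference of effects, 158 to 436 after vehicle and 455 to 1281 after dexamethasone. No member passed for the difference of effects or after vehicle under any alternative.

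Signs that turned in comparisons where nothing was called were these. For the female minus the male effect, slide as a block gave H2-Aa -0.060, H2-Ab1 -0.0094, H2-Eb1 -0.13, H2-DMa -0.13, Cd74 -0.013 and Ctss -0.13, and normexp gave H2-Aa -0.052 and H2-DMa -0.20 (-0.020 with the cap). Leaving out 1 array at a time, the range was -0.22 to 0.52 for H2-Eb1, -0.036 to 0.54 for H2-DMa, -0.088 to 0.48 for Ctss and -0.90 to 0.057 for H2-Ob. H2-Ob between the sexes was -0.011 after vehicle and -0.23 after dexamethasone with normexp (-0.042 and -0.28 with the cap), -0.29 after dexamethasone with slide as a block, and -0.46 to 0.49 with 1 array left out. The cause of these turns was not tested. H2-Ob and Ciita lie near background, which limits their fold changes.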
